A study of Mus musculus with 10 samples.

Results

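A set of 10 regulators of the hair follicle cycle was followed through lesional and uninvolved mouse skin. They are Shh, Ptch1, Gli1, Lef1, Msx2, Hoxc13, Foxn1, Dlx3, Gata3 and Fgf5, chosen by name as 10 of the 24358 gene symbols in the count tables, and all 10 passed the filter on low counts. RNA was sequenced from 10 full-thickness biopsies of dorsal skin, 1 lesional and 1 uninvolved from each of 5 C57Bl/6 mice. An interleukin-17C (IL-17C) transgene is present in all 5 mice, and no group lacks it. Of these, 2 mice are labelled IL-17C+KO (2392 and 2465), where the series title names interleukin-6 (Il6) as the knocked-out gene, and 3 mice are labelled IL-17C+ (2237, 2275 and 2296). The labels do not name the promoter that drives the transgene. Ages were 10 or 14 weeks, and the labels do not say which mouse had which age, so age and genotype cannot be told apart in any comparison of genotypes. Wherever several values are listed for a group, they follow the order 2392 and 2465, or 2237, 2275 and 2296.

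Hair follicles pass through growth (anagen), regression (catagen) and rest (telogen). During growth, matrix cells at the follicle base divide under Wnt signals, which act through Lef1, and under Sonic hedgehog (Shh), which binds its receptor Ptch1 and switches on Gli1. Above the matrix, transcription factors such as Msx2, Hoxc13, Foxn1 and Dlx3 direct the formation of the hair shaft, Gata3 specifies the inner root sheath around it, and the growth factor Fgf5 acts to end growth. In a full-thickness biopsy follicle cells are one source of RNA among many, and a lower value from fewer follicle cells and one from less RNA per cell cannot be told apart.

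Promoter windows of the 250 bases before a transcription start were taken from RefSeq (GRCm38.p6) and matched 6 of the 10 genes, with 9 windows in all. The 3 printed here are given because they overlap no annotated exon and belong to the hedgehog receptor (Ptch1), which varied least, a shaft regulator (Foxn1) and the growth-ending signal (Fgf5). Capitals mark a GC box (GGGCGG) or a CCAAT box on either strand. The Ptch1 window is chr13:63565736-63565985 on the minus strand, inside the span of the gene, the Foxn1 window is chr11:78386609-78386858 on the minus strand, and the Fgf5 window is chr5:98253934-98254183 on the plus strand.
Ptch1: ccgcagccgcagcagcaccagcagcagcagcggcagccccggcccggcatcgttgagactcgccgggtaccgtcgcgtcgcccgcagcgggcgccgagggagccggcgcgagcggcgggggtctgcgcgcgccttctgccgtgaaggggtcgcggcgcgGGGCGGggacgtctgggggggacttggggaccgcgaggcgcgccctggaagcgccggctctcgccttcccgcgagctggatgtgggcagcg
Foxn1: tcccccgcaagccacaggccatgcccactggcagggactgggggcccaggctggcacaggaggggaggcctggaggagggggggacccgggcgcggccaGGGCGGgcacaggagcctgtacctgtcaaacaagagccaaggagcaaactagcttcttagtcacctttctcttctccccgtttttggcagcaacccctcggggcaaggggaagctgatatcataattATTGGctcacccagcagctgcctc
Fgf5: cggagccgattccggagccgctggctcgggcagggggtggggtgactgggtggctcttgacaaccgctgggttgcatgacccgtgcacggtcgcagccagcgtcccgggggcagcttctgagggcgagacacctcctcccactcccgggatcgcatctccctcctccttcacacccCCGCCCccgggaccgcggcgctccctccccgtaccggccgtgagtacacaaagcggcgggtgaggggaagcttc
The 9 windows are not independent, since 4 belong to starts of Lef1 and 2 of these overlap and share their GC box. On both strands, 8 of the 9 windows hold a GC box, as do 33% of 32536 promoter windows of this length, and 2 hold a CCAAT box, as do 33.8%. A GLI motif (GACCACCCA, in 0.218% of all windows), a TCF/LEF motif (CTTTGAT, in 3.21%), a homeodomain core (TAATTG, in 7.18%) and a GATA motif (AGATAA, in 9.97%) were looked for, and these letters are in none of the 9 windows. A TATA box (TATAAA, in 12.3%) is in 1, a later start of Lef1.

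The libraries held between 21056850 and 31072491 counts, and 17790 to 18431 genes had at least 1 count. Il6 went against the genotype labels. Lesional libraries labelled IL-17C+KO held 315 and 300 Il6 counts, against 26, 18 and 69 in lesional IL-17C+ libraries. Uninvolved libraries labelled IL-17C+KO held 71 and 55, against 9, 4 and 6 in uninvolved IL-17C+ libraries. Counts are summed over the whole gene and do not show which exons were covered, so every direction between genotypes rests on the labels. All 10 libraries held counts at Il17c, which do not separate the transgene from the endogenous gene. Libraries labelled IL-17C+KO had 62228 and 244029 Il17c counts in lesional and 42521 and 13931 in uninvolved skin. In IL-17C+ mice Il17c had 351988, 279147 and 317795 counts in lesional and 367725, 35560 and 109431 in uninvolved libraries. Counts at Il17c thus varied across mice, skin types and labels. Products of the growing follicle were followed with 16 structural genes, keratins of the hair shaft and inner root sheath with Tchh, S100a3 and Padi3. Such genes cannot show whether follicles at rest are present. All 16 were tested, and they were detected in all 10 libraries as a group, with at most 1 of them at 0 in any library. Their sum ran from 25.3 to 13620 CPM, so detection alone does not show growing follicles in each biopsy.

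The regulators varied far more between libraries than most genes, and most of them were high in the same libraries. Levels are given as CPM, counts scaled to library size by TMM. On the log2 scale with a prior count of 2, 9 of the 10 spanned more than 2 log2 units over the 10 libraries, as did 30.5% of the 16083 tested genes. The median span was 3.78 log2 units over the regulators and 1.44 over all tested genes. Shh spanned 6.67 log2 units, Fgf5 5.73, Msx2 5.14, Hoxc13 4.60 and Lef1 4.36, while Dlx3 spanned 3.21, Foxn1 2.91, Gli1 2.29, Gata3 2.06 and Ptch1 1.53. The 3 libraries with the most Msx2 were the uninvolved biopsy of mouse 2237, the lesional biopsy of mouse 2275 and the lesional biopsy of mouse 2237. The same 3 were highest for Shh, Gli1, Lef1, Hoxc13 and Dlx3, so for 6 of 10 with Msx2 itself, beside 2.74% of all tested genes. The 6 libraries with the most Msx2, which add both biopsies of mouse 2296 and the lesional biopsy of mouse 2465, were also the 6 highest for Lef1, Hoxc13, Foxn1, Dlx3 and Fgf5, again 6 of 10, beside 4.24%. These libraries were found from Msx2, so the shares describe the set and carry no test. Ptch1 and Gata3 shared neither group of libraries.

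**Figure D1:**
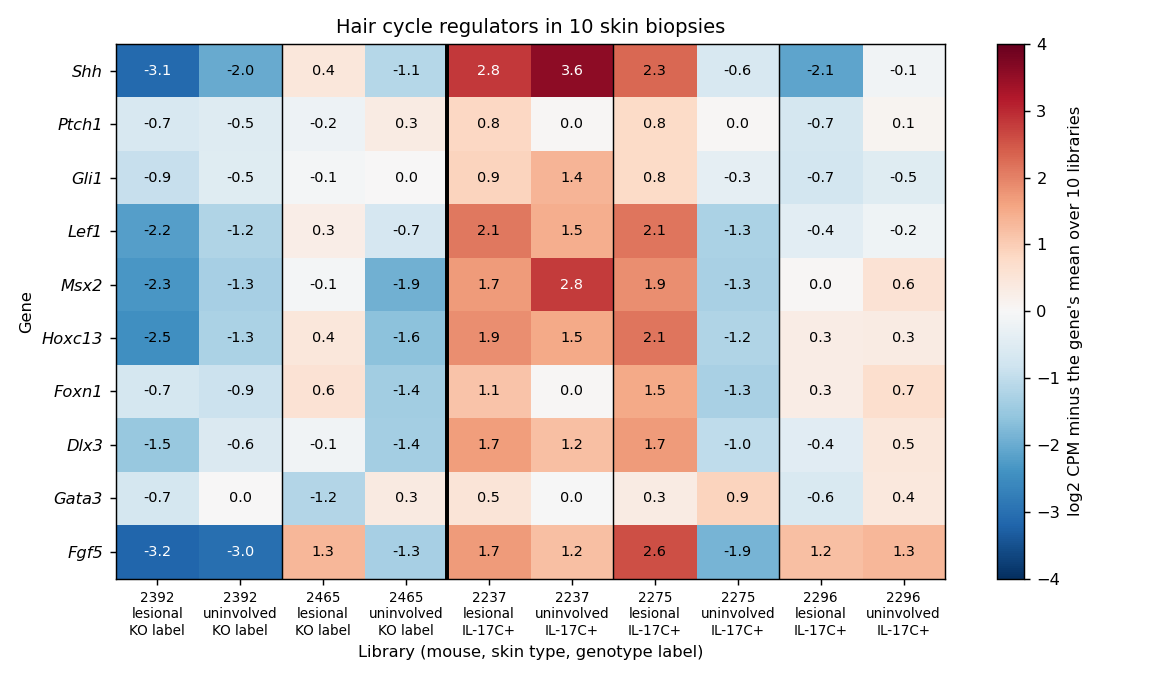
Log2 level of each regulator in each library, as the difference from the gene's own mean over the 10 libraries (log2 CPM units), with libraries labelled IL-17C+KO left of IL-17C+ libraries and lesional left of uninvolved within each mouse. Shh, Gli1, Lef1, Msx2, Hoxc13 and Dlx3 share their 3 highest libraries (both of mouse 2237 and lesional 2275), and Ptch1 has the smallest span, 1.53.

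Among the hedgehog genes the ligand varied most. Shh (GRCm38 chromosome 5, 28456815 to 28467256, minus strand), the secreted signal of the hair matrix, had 0 and 19 counts in lesional libraries labelled IL-17C+KO and 159, 85 and 2 in lesional IL-17C+ libraries. Uninvolved skin gave 2 and 6 Shh counts for the label IL-17C+KO, against 194, 9 and 11 in IL-17C+ mice. Both biopsies of mouse 2237 and the lesional biopsy of mouse 2275 stood above the rest, and the lesional library of mouse 2296 was as low as those of mouse 2392. The count of 0 in that lesional library of mouse 2392 allows up to 0.117 CPM of the library total. Exons of Shh overlap the antisense gene 9530036O11Rik, and without a stated strand setting their reads cannot be told apart.

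Ptch1 (chromosome 13, 63508328 to 63573598, minus strand), the receptor that Shh binds and a target of the pathway, was the steadiest of the set. It had 7.995 and 10.8 CPM in lesional libraries labelled IL-17C+KO and 22.4, 21.3 and 7.69 CPM in lesional IL-17C+ libraries. In uninvolved biopsies Ptch1 had 8.72 and 15.7 CPM under the label IL-17C+KO, against 13.0, 12.9 and 13.7 CPM in IL-17C+ mice. The lesional libraries of mice 2237 and 2275 were the highest, and in uninvolved skin the values of the labels overlapped. Gli1 (chromosome 10, 127329882 to 127341974, minus strand), the transcription factor whose level reports pathway activity, had 5.96 and 10.8 CPM in lesional libraries labelled IL-17C+KO, and 21.2, 19.3 and 6.87 CPM in lesional IL-17C+ libraries. Its uninvolved values were 8.09 and 11.5 CPM under the label IL-17C+KO, against 29.4, 8.92 and 8.19 CPM in IL-17C+ mice. Gli1 was thus high in the same 3 libraries as Shh, over a narrower range. Its exons overlap the antisense gene Arhgap9.

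Of the 15 other hedgehog pathway genes looked at, 14 were tested, and 0 rose and 0 fell between lesional and uninvolved skin over all mice. Their median log2 change was 0.10, with 9 above 0 and 5 below, against -0.01 over all genes. The smallest p belonged to Gas1, a coreceptor that helps Shh bind, with an edgeR change of 0.86 ± 0.22 log2 units (SE, 5 mice) and an adjusted p of 0.112, higher in lesional skin in 5 of 5 mice. Sufu, which holds Gli proteins in check, differed by 0.72 ± 0.23 log2 units with an adjusted p of 0.145, and Hhat, which attaches a fatty acid to Shh, by 0.52 ± 0.23 with 0.257 in the same edgeR fit.

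Lef1 (chromosome 3, 131110471 to 131224356, plus strand), the transcription factor that carries Wnt signals in matrix and precortex cells, had 0.830 and 4.99 CPM in lesional libraries labelled IL-17C+KO and 18.0, 18.6 and 3.10 CPM in lesional IL-17C+ libraries. Uninvolved biopsies had 1.74 and 2.57 CPM under the label IL-17C+KO, against 11.5, 1.67 and 3.65 CPM in IL-17C+ mice. The 3 highest libraries stood apart from the other 7, of which the highest had 4.99 CPM.

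Msx2 (chromosome 13, 53466884 to 53473074, minus strand), a homeobox factor of the matrix needed to keep the hair shaft growing, had 2.53 and 12.4 CPM in lesional libraries labelled IL-17C+KO and 42.8, 47.5 and 13.4 CPM in lesional IL-17C+ libraries. In uninvolved skin it had 5.19 and 3.38 CPM under the label IL-17C+KO, against 91.8, 5.26 and 19.4 CPM in IL-17C+ mice. In each skin type both values under the label IL-17C+KO lay below all 3 IL-17C+ values. So did 13.2% of all genes in lesional and 10.6% in uninvolved skin. The gap was small in both, to mouse 2296 in lesional and to mouse 2275 in uninvolved skin. Hoxc13 (chromosome 15, 102921103 to 102928814, plus strand), a homeobox factor that acts on hair keratin genes, had 2.34 and 18.2 CPM in lesional libraries labelled IL-17C+KO and 49.0, 58.6 and 16.4 CPM in lesional IL-17C+ libraries. Its uninvolved values were 5.50 and 4.18 CPM under the label IL-17C+KO, against 37.9, 5.70 and 16.7 CPM in IL-17C+ mice. As with Msx2, the uninvolved biopsy of mouse 2275 sat with those of the IL-17C+KO label and far below its own lesional biopsy.

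Foxn1 (chromosome 11, 78357577 to 78386558, minus strand), the gene mutated in nude mice and needed for keratinization of the shaft, had 9.84 and 23.9 CPM in lesional libraries labelled IL-17C+KO and 35.4, 45.6 and 19.6 CPM in lesional IL-17C+ libraries. Uninvolved skin had 8.67 and 5.99 CPM under the label IL-17C+KO, against 16.4, 6.37 and 25.5 CPM in IL-17C+ mice. Lesional skin was higher in 4 of 5 mice, the exception being mouse 2296. Dlx3 (chromosome 11, 95120119 to 95125296, plus strand), a homeobox factor of the matrix and shaft, had 13.2 and 34.6 CPM in lesional libraries labelled IL-17C+KO and 120.4, 123 and 27.7 CPM in lesional IL-17C+ libraries. Its uninvolved values were 25.5 and 14.7 CPM under the label IL-17C+KO, against 87.7, 18.5 and 51.8 CPM in IL-17C+ mice. The same 3 libraries led again, and the labels overlapped in both skin types.

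Gata3 (chromosome 2, 9857078 to 9890034, minus strand) did not follow the others. This factor of the inner root sheath is also made by interfollicular keratinocytes and T cells. It had 41.0 and 29.5 CPM in lesional libraries labelled IL-17C+KO and 96.7, 84.5 and 43.5 CPM in lesional IL-17C+ libraries. In uninvolved skin it had 68.1 and 85.3 CPM under the label IL-17C+KO, against 66.7, 123 and 89.3 CPM in IL-17C+ mice. Its highest library was the uninvolved biopsy of mouse 2275, where 6 of the other regulators were among their 4 lowest, and lesional skin was lower in 4 of 5 mice. A set of 8 T cell genes summed to between 15.9 and 27.8 CPM in lesional and between 14.5 and 35.3 CPM in uninvolved skin, with none at 0. Of those 8 genes 0 rose and 0 fell over all mice, 2 were above 0 and 6 below. Cd4, the T cell gene with the smallest p, differed by 1.04 ± 0.28 log2 units (edgeR adjusted p = 0.118). Cd3e, part of the T cell receptor complex, differed by -1.26 ± 0.51 log2 units (edgeR adjusted p = 0.21). Il7r differed by 0.86 ± 0.38 (edgeR adjusted p = 0.249). The 7 tested genes of interfollicular keratinocytes summed to between 17350 and 25935 CPM in lesional and between 15286 and 33938 CPM in uninvolved skin, with none at 0. Of these 0 rose and 0 fell, 3 were above 0 and 4 below. Krt14, a keratin, had the smallest p and differed by 0.91 ± 0.33 (edgeR adjusted p = 0.176). Lor, a protein of the cornified layer, differed by -1.41 ± 0.57 (edgeR adjusted p = 0.214). Like Gata3, both Lor and Cd3e were higher in lesional skin in mouse 2237 and lower in the other 4 mice. Krt14, Cd4 and Il7r differed from Gata3 in this and were higher in lesional skin in 5 of 5 mice. Of 6 type 2 lymphocyte genes, 4 were tested over all mice, with 3 above 0 and 1 below, and 0 rose and 0 fell. Il1rl1 differed by 1.97 ± 0.48 log2 units (edgeR adjusted p = 0.108) and was higher in 5 of 5 mice. Il4, at most 0.758 CPM, differed by 1.72 ± 0.52 (edgeR adjusted p = 0.139), also higher in 5 of 5. Rora differed by -0.78 ± 0.43 (edgeR adjusted p = 0.335), lower in 4 of 5 mice. Il13 and Il5, made by type 2 lymphocytes, had at most 10 and 3 counts in any library, and Il5 had 0 in 8 of 10. The part of these cells in the Gata3 values was not tested. Exons of Gata3 overlap 9230102O04Rik on the same strand, so reads of this pair cannot be told apart.

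Fgf5 (chromosome 5, 98254184 to 98277030, plus strand), whose loss gives long hair in mice, had 3 and 95 counts in lesional libraries labelled IL-17C+KO and 185, 261 and 98 in lesional IL-17C+ libraries. Uninvolved skin gave 3 and 16 Fgf5 counts for the label IL-17C+KO, against 94, 10 and 87 in IL-17C+ mice. In lesional skin the labels overlapped once scaled, with 4.24 CPM in mouse 2465 (IL-17C+KO) against 3.85 CPM in mouse 2296 (IL-17C+). Both biopsies of mouse 2392 were near 0.

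Levels can be set beside each other between genes only per transcript length, which the deposited FPKM values give. By the median over the 10 libraries the order was Gata3 (20.9 FPKM), Dlx3 (11.5), Hoxc13 (6.27), Msx2 (5.77), Foxn1 (4.91), Ptch1 (2.66), Gli1 (2.47), Fgf5 (1.40), Lef1 (0.997) and Shh (0.155). Each pair of neighbours in this order had ranges over the libraries that overlapped. The highest values were 48.4 FPKM for Dlx3, 38.9 for Msx2 and 34.7 for Gata3, and the highest Shh value was 2.70 FPKM.

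The first comparison sets the lesional biopsy of each mouse against its uninvolved one, and for these genes the direction differed between mice. In mouse 2275, 9 of 10 regulators were higher in the lesional biopsy, with a median difference of 2.89 log2 units. In mouse 2465, 7 of 10 were higher with a median of 1.40, and in mouse 2237, 7 of 10 with a median of 0.49. In mouse 2392 only Foxn1 was higher and the median was -0.84, and in mouse 2296 none was higher and the median was -0.46. Across all tested genes 48.5% to 50.1% were higher in the lesional biopsy of a mouse. Fgf5 illustrates the spread, with lesional minus uninvolved differences of -0.15 and 2.64 log2 units in the mice labelled IL-17C+KO and 0.51, 4.42 and -0.15 in IL-17C+ mice.

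**Figure D2:**
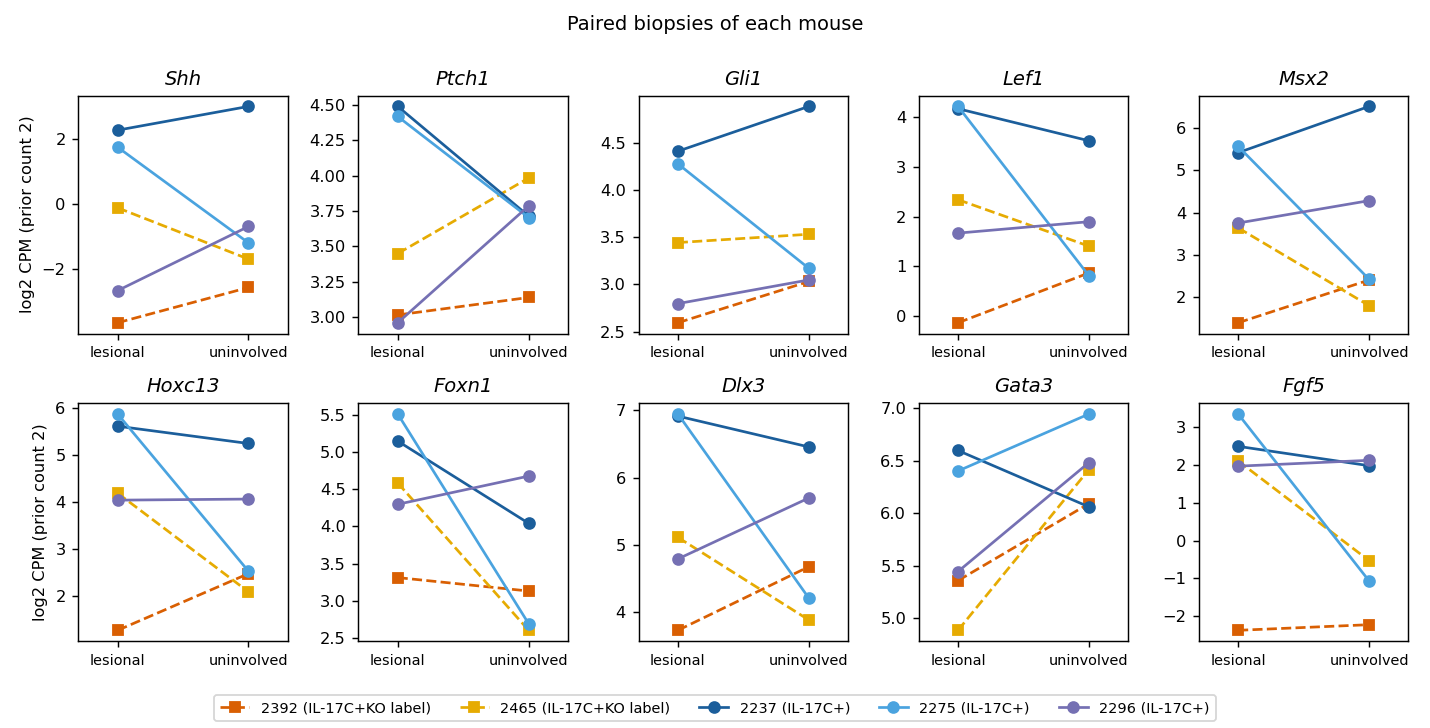
Log2 CPM of each regulator in the lesional (left) and uninvolved (right) biopsy of the same mouse, joined by a line per mouse and coloured by mouse, with the genotype label in the legend. Mouse 2275 has steep lines (Fgf5 difference 4.42), mouse 2296 has none that is higher in lesional skin, and for most genes the lines cross.

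Over all mice, 0 of 10 regulators had a Benjamini-Hochberg adjusted p under 0.05 in edgeR's quasi-likelihood F test blocked by mouse, where 8 of 16083 genes (0.0497%) did. DESeq2 called 0 of the 10 while calling 2036 genes in all, and limma-voom called 0 of the 10 and 4 genes in all. Foxn1 alone had an unadjusted p under 0.05, so 1 of 10 beside 21.5% of all genes. Its log2 difference was 1.14 ± 0.48 (SE, 5 mice; edgeR adjusted p = 0.231). Gata3 differed by -0.67 ± 0.29 (edgeR adjusted p = 0.243) and Fgf5 by 1.56 ± 0.80 (0.31). The log2 differences of the others were 0.89 ± 0.67 for Hoxc13, 0.72 ± 0.62 for Lef1, 0.48 ± 0.57 for Dlx3, 0.38 ± 0.73 for Msx2, 0.31 ± 0.96 for Shh, 0.00 ± 0.30 for Ptch1 and -0.04 ± 0.27 for Gli1. Without mouse 2275, Fgf5 differed by 0.80, Foxn1 by 0.71, Hoxc13 by 0.29 and Lef1 by 0.11, and Shh, Msx2 and Dlx3 turned to below 0. Of the 10, 8 were above 0 (49.4% of all genes) and 2 below (50.6%), with a median of 0.43 against -0.01 over all genes. No regulator was higher in lesional skin in 5 of 5 mice (9.13% of all genes) or lower in 5 of 5 (9.73%). In at least 4 of 5 mice, 1 of 10 was higher (Foxn1, beside 29.6%) and 2 of 10 were lower (Gli1 and Gata3, beside 32.1%). Without mouse 2237, Gata3 differed by -0.96 ± 0.19 log2 units and passed the test (edgeR adjusted p = 0.0405), in a fit that called 7.84% of 15934 genes.

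Within one label the tests had fewer mice. In the mice labelled IL-17C+KO, 0 of 10 passed in edgeR's test, beside 0.0124% of all genes. DESeq2 called 0 of the 10 and 1157 genes in all, and limma-voom 0 of the 10 and 2 genes. Only Gata3 had an unadjusted p under 0.05 (13.5% of all genes), with a difference of -1.13 ± 0.44 log2 units and an edgeR adjusted p of 0.342, lower in 2 of 2 mice. Of the 10 differences 7 were above 0 (50.2% of all genes) and 3 below (49.8%). In IL-17C+ mice 0 of 10 passed, beside 0% of all genes. DESeq2 called 0 of the 10 and 247 genes in all, limma-voom called 0 of both, and 0 of 10 had an unadjusted p under 0.05 (6.41% of all genes). The differences there ran between -0.35 ± 0.36 for Gata3 and 1.38 ± 1.03 log2 units for Fgf5 (SE, 3 mice), 9 above 0 (48.5% of all genes) and 1 below (51.5%). The difference of the lesional effects between the labels, tested in the same edgeR fit, gave 0 calls among the 10 and over all genes (0%), while DESeq2 called 0 of the 10 and 6 genes in all, and limma-voom 0 of both. No regulator had an unadjusted p under 0.05 there, beside 1.17% of all genes. Its values ran between -1.21 ± 1.25 log2 units for Lef1 and 0.78 ± 2.12 for Shh, all with an edgeR adjusted p of 1, and 3 of 10 were above 0 and 7 below, beside 50% of all genes each way. The standard errors of 0.56 to 2.12 log2 units set what could be detected.

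Between the labels, all 10 regulators had lower fitted levels under IL-17C+KO in both skin types, and none passed the test. In lesional skin all 10 log2 differences were below 0, beside 49.3% of 15691 genes (50.7% were above), with a median of -1.73 against 0.01 over all genes. In uninvolved skin all 10 were again below 0, beside 51.1% of 15568 genes (48.9% were above), with a median of -1.38 against -0.01. In uninvolved skin this did not hold for Ptch1 without mouse 2392 (0.25) or for Gli1 without mouse 2237 (0.19). Most regulators share their high libraries, so these counts of 10 are not 10 separate observations, and the lesional and uninvolved biopsies come from the same mice.

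In lesional skin edgeR's test called 0 of 10, beside 0% of all genes. DESeq2 called 0 of the 10 and 213 genes in all, and limma-voom 0 of both. Msx2 and Gata3 had an unadjusted p under 0.05, so 2 of 10 beside 7.3% of all genes. Msx2 averaged 7.44 ± 6.95 CPM under the label IL-17C+KO and 34.6 ± 18.5 CPM in IL-17C+ mice (SD, n = 2 and 3), a difference of -2.19 ± 0.87 log2 units with an edgeR adjusted p of 0.679. Gata3 averaged 35.3 ± 8.12 CPM under the label IL-17C+KO and 74.9 ± 27.9 CPM in IL-17C+ mice (SD, n = 2 and 3), a difference of -1.06 ± 0.39 with an edgeR adjusted p of 0.651. These were also the 2 of 10 whose groups did not overlap, lower under IL-17C+KO, beside 13.2% of all genes, while 0 of 10 were higher without overlap (11.8%). The largest difference was that of Shh, -2.69 ± 1.83 log2 units, with the largest standard error of the set. Without mouse 2465, whose lesional library holds all 19 Shh counts under the label IL-17C+KO, the fitted value was -9.25, which is set against a group at 0 and is no bound, and without mouse 2392 it was -1.66. Without mouse 2465, Fgf5 was at -5.80, Hoxc13 at -4.15, Msx2 at -3.78 and Foxn1 at -1.77 log2 units.

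In uninvolved skin edgeR's test again called 0 of 10, beside 0% of all genes. DESeq2 called 0 of the 10 and 11 genes in all, and limma-voom 0 of both. Without adjustment 4 of 10 had a p under 0.05, beside 3.73% of all genes. Shh differed by -4.16 ± 1.64 log2 units, Msx2 by -3.18 ± 1.23, Fgf5 by -2.89 ± 1.14 and Hoxc13 by -2.05 ± 0.77, each with an edgeR adjusted p of 0.849. Shh, Msx2 and Hoxc13 were also the 3 of 10 whose groups did not overlap, lower under IL-17C+KO, beside 10.6% of all genes, and 0 of 10 were higher without overlap (10.5%). The calls depended on mouse 2275, whose uninvolved biopsy was low. Without it Hoxc13 differed by -2.49 ± 0.49 log2 units (edgeR adjusted p = 0.0245), Fgf5 by -3.40 ± 0.72 (0.0359) and Msx2 by -3.70 ± 0.73 (0.0491), in a fit that called 1.57% of 15367 genes. Without any other mouse, 0 of the regulators tested passed, and Shh had no value without mouse 2237 or without mouse 2296. Without mouse 2237, Msx2 differed by -1.53, Hoxc13 by -1.21 and Lef1 by -0.30.

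**Figure D3:**
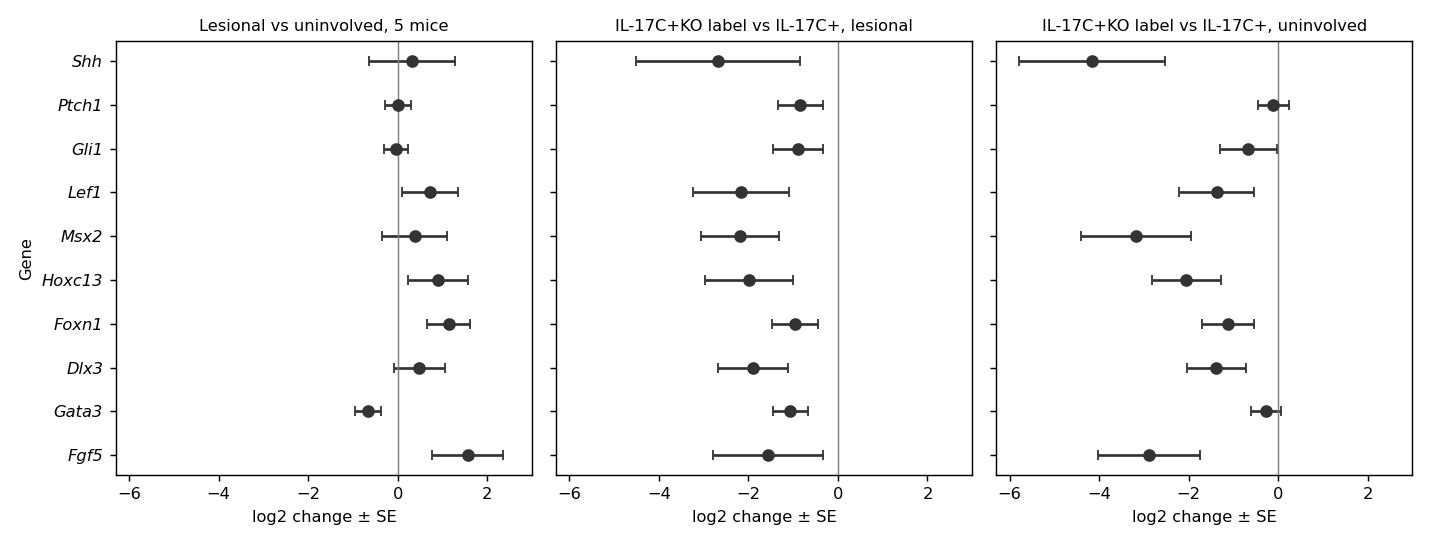
Fitted log2 differences of the 10 regulators with their standard errors (bars) for lesional against uninvolved skin and for IL-17C+KO against IL-17C+ labels, each on its own panel with a line at 0. All 10 points lie below 0 in both genotype panels, between -2.69 and -0.84 in lesional skin and between -4.16 and -0.11 in uninvolved skin, and none passed the adjusted threshold.

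The products of the growing follicle were highest in the same libraries as 6 of the 10 regulators. The 16 structural genes summed to 26.3 and 2986 CPM in lesional libraries labelled IL-17C+KO and 9415, 11158 and 1525 CPM in lesional IL-17C+ libraries. In uninvolved skin they summed to 55.5 and 38.4 CPM under the label IL-17C+KO, against 13620, 25.3 and 2687 CPM in IL-17C+ mice. The libraries thus fall into 6 with at least 1525 CPM and 4 with at most 55.5 CPM, and these are the same 6 and 4 as for Msx2. All 16 genes had the same 3 and the same 6 highest libraries as Msx2. Tchh, which makes the trichohyalin of the inner root sheath, had between 7.43 and 1995 CPM in lesional and between 6.09 and 1269 CPM in uninvolved skin. Over all mice 0 of the 16 rose and 0 fell, all 16 differences were above 0, and their median was 1.56 log2 units. The direction was not shared by the mice. The sum was higher in lesional skin in mice 2465 and 2275 and lower in mice 2392, 2237 and 2296. Padi3 had the smallest p, with a difference of 2.47 ± 1.88 log2 units (edgeR adjusted p = 0.492). Between the labels all 16 were below 0 in both skin types, with medians of -2.33 log2 units in lesional and -6.89 in uninvolved skin, and 0 passed.

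**Figure D4:**
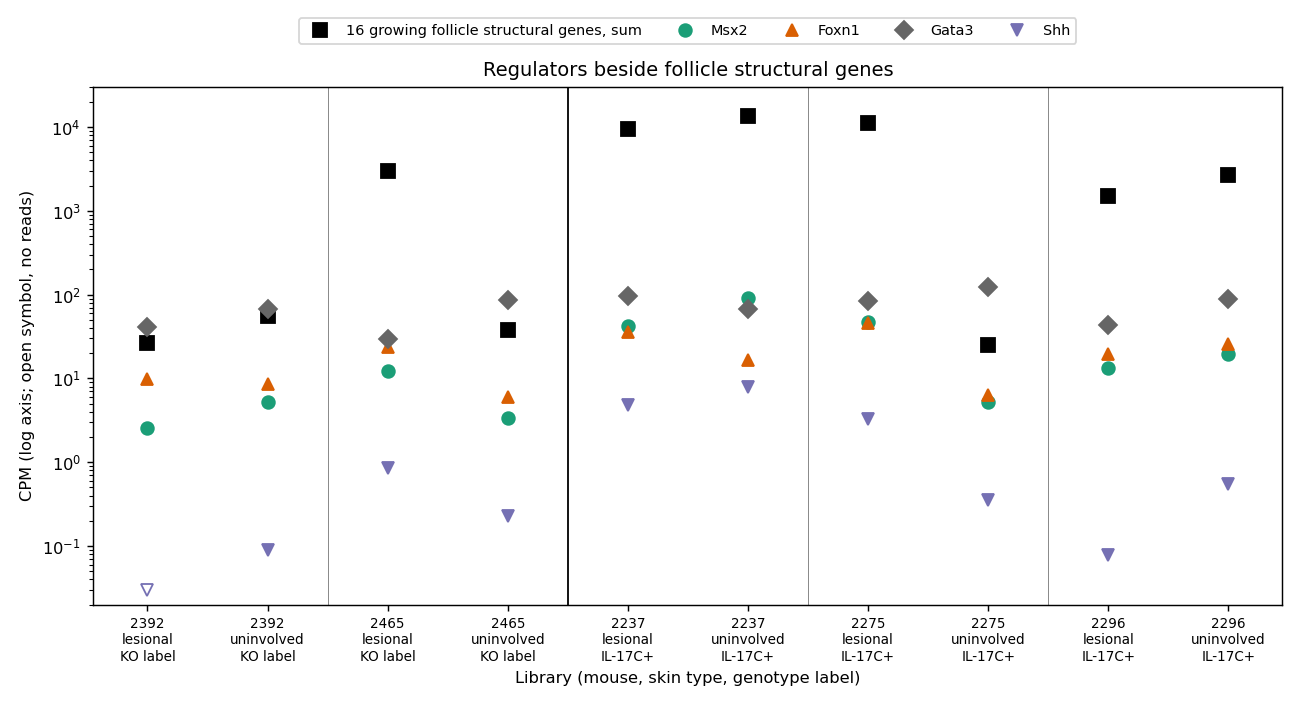
CPM on a log axis of the summed 16 structural genes (squares) and of 4 regulators in each library, with libraries labelled IL-17C+KO on the left and lesional left of uninvolved within each mouse. The structural sum is at most 55.5 CPM in 4 libraries and at least 1525 CPM in the other 6, Msx2 follows it, and Gata3 does not.

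The 7 melanocyte pigment genes, active in growing follicles, had the same 6 highest libraries as Msx2 in 7 of 7 cases and the same 3 in 3. Their sum was 58.8 and 258 CPM in lesional libraries labelled IL-17C+KO and 447, 302 and 366 CPM in lesional IL-17C+ libraries, with 92.3 and 88.2 CPM in uninvolved libraries labelled IL-17C+KO against 1281, 105 and 165 CPM in uninvolved IL-17C+ libraries. Unscaled counts at Il17c were at most 62228 in the 4 libraries lowest for Msx2 and at least 109431 in the 6 highest. That split was found from Msx2, and 4.24% of all tested genes had the same 6 highest libraries. The part of the transgene in the follicle values was not tested. The muscle and fibroblast sums split by skin type instead. The sum of 6 skeletal muscle genes was lower in lesional skin, at 449 to 4557 CPM, than in uninvolved skin, at 4707 to 31972 CPM, and that of 6 fibroblast genes was higher, at 5601 to 29189 CPM against 2399 to 4030 CPM. Of the 6 muscle and 6 fibroblast genes, 0 had the same 3 or the same 6 highest libraries as Msx2 and 0 passed the test. The part of tissue composition in the regulators' values was not tested. Of the 10 dividing cell genes, 0 had the same 3 or the same 6 highest libraries as Msx2, and 0 passed. All 10 had differences above 0 between lesional and uninvolved skin over all mice (median 1.13 log2 units, against -0.01 over all genes). Between labels, all 10 were below 0 in uninvolved skin (median -1.21), and in lesional skin 7 were above 0 and 3 below (median 0.20).

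Of 20 other matrix and shaft transcription factors, 19 were tested over all mice and 0 rose and 0 fell, with 17 above 0 and 2 below and a median of 0.56 log2 units. Trps1, a repressor needed for hair formation, had the smallest p, with 0.89 ± 0.23 log2 units and an edgeR adjusted p of 0.114, higher in 5 of 5 mice. Of the 19, 4 (21.1%) had Msx2's 3 highest libraries and 4 (21.1%) its 6 highest, against 2.74% and 4.24% of all tested genes. Among them Foxe1, a forkhead factor of the lower follicle, had 1 and 56 counts in lesional libraries labelled IL-17C+KO and 219, 213 and 75 in lesional IL-17C+ libraries. In uninvolved skin Foxe1 was at 1 count in both libraries of the label IL-17C+KO, against 91, 0 and 46 in IL-17C+ mice. Of 20 ligands and modulators of the cycle, 19 were tested and 0 rose and 0 fell, with a median of -0.04 log2 units. Sfrp1, an inhibitor of Wnt, had the smallest p and differed by 0.78 ± 0.18 (edgeR adjusted p = 0.0978), higher in 5 of 5 mice. Hgf differed by 1.63 ± 0.42 (edgeR adjusted p = 0.116), also higher in 5 of 5 mice. Bmp4, a signal that acts in the follicle niche, differed by -0.86 ± 0.23 (edgeR adjusted p = 0.116), and was lower in 5 of 5 mice. Among 10 dermal papilla genes, 0 rose and 0 fell, and the smallest p was that of Crabp1, 2.50 ± 0.43 log2 units with an edgeR adjusted p of 0.0683.

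The genes whose profiles over the 10 libraries lay nearest to each regulator were found by the root mean square difference of centred log2 levels, for the 9 regulators that spanned more than 2 log2 units. The search covered 12826 tested genes with a mean of at least 2 CPM. It left out the regulators themselves and clone-type names. Nearest to Lef1 was Slain1, at 0.19 log2 units, then Cybrd1 at 0.43 and Nkd2 at 0.44. Nearest to Gli1 was Sytl2 (0.19), to Gata3 Per3 (0.24), to Foxn1 Slc7a8 (0.29), to Hoxc13 Bean1 (0.34), to Fgf5 Krt75 (0.41), to Dlx3 Gpnmb (0.42), to Msx2 Prss53 (0.43) and to Shh Mt4 (0.83). Shh had the largest nearest distance of the 9, and the lowest counts. Its own mean of 1.82 CPM lay below the floor of the search, so genes as low as Shh were not searched. Within the set, Lef1 and Hoxc13 lay 0.43 apart, Gata3 and Ptch1 0.48, Msx2 and Hoxc13 0.48, and Gli1 and Ptch1 0.49. Dlx3 and Lef1 lay 0.49 apart, Foxn1 and Dlx3 0.60, Fgf5 and Hoxc13 0.83, and Shh and Msx2 0.98. Profiles were centred but not scaled to their spans, so genes with narrow spans lie closer. These distances are descriptions over 10 libraries of 5 mice and carry no test.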

How the data were processed

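RNA from 10 skin biopsies was sequenced on an Illumina Genome Analyzer IIx, per the labels. The deposited count values are whole numbers per gene, read as raw counts. The deposited FPKM values are scaled by the authors to transcript length and library size. The submitters' processing notes name cutadapt 1.6, TopHat2 2.0.12, HTSeq, Cufflinks 2.2.1 and mm10. Order, settings, annotation and strand use were not given in these sources. Groups and mouse numbers come from the labels, the mice are separate animals, and no library was left out.

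Counts were filtered with filterByExpr on the 4 groups, scaled by TMM and tested in R 4.3.3 with edgeR 4.0.16 (robust quasi-likelihood F tests). P-values were adjusted over all tested genes (Benjamini-Hochberg, threshold 0.05). Lesional and uninvolved skin were compared over 10 libraries, blocked by mouse, and genotypes within each skin type. Standard errors are the log2 difference divided by the square root of F. Alternatives were other scaling, no filter, DESeq2 1.42.0, limma 3.58.1 (voom, and log2 of FPKM + 0.1), no block, and leaving out each mouse. The steps were tested on simulated data. A count of 0 allows up to 3 counts, 0.0965 to 0.142 CPM, which covers counting error only.

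Pairing comes from the labels, which tie both biopsies to a mouse. Deviations from group means within a mouse correlated at -0.122, 0.034 and -0.070 in IL-17C+ mice and -0.072 in IL-17C+KO mice. With 2 mice under the label IL-17C+KO, their deviations mirror each other, so -0.072 is the same value for both by construction. These correlations, near or below 0, do not by themselves show the pairing, which rests on the labels. The members, lists and naming rule were chosen with earlier results of these data known. All members are described; from a list, genes past the threshold are named, or else at most the 3 with the smallest p over all mice. Foxe1 and the type 2 cytokines were named after their values were seen. Flg is not used here. Coordinates are from GENCODE M21.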

Additional observations from a re-analysis of the deposited data

Results flagged for a closer look

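Gli1 was 1.11 log2 units higher in the lesional than in the uninvolved biopsy of mouse 2275, while in the other 4 mice the lesional minus uninvolved difference lay between -0.47 and -0.09 log2 units. The gap between mouse 2275 and the nearest other mouse took up most of the range over the 5 mice. The 10 regulators were each examined in this way, and chance marks about 1 in 20 such groups of values. The cause was not tested.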

How the results depend on the processing

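Of the 60 regulator values (10 genes in 6 comparisons), 328 of 340 recomputed under other settings kept their direction and their side of the threshold, and 12 turned direction, all close to 0 or with a wide error. Over all mice these were Ptch1 with no filter on low counts (-0.00076) and Gli1 with limma on FPKM (0.11). In IL-17C+ mice they were Shh with DESeq2 (-0.14) and, with no replicate block, Shh (-0.12) and Msx2 (-0.17). In the mice labelled IL-17C+KO, Lef1 turned with no filter (-0.011), DESeq2 (-0.0058) and limma on FPKM (-0.070). In the difference between labels, Msx2 (-0.033) and Fgf5 (-0.33) turned with limma on FPKM, and Hoxc13 (0.041) and Foxn1 (0.14) with no replicate block. No regulator passed the threshold under any of these settings. Counts of all genes called moved more. Over all mice (8 genes) they were 15 with no filter, 2036 with DESeq2, 4 with limma-voom, 15 with limma on FPKM and 891 with no replicate block. In the mice labelled IL-17C+KO (2 genes) they were 5 with no filter, 1157 with DESeq2 and 0 with no replicate block. DESeq2 called 247 genes in IL-17C+ mice, 6 for the difference between labels, 213 between labels in lesional and 11 in uninvolved skin, where edgeR called 0 in each, and no filter gave 1 in lesional skin.

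Leaving out 1 mouse at a time kept 252 of 298 values the same, made 4 pass and turned 42, in 26 of the 60. The lone mouse left under the label IL-17C+KO is then assumed to vary like the others. Over all mice the ranges of those that turned were -0.60 to 0.97 for Shh, -0.19 to 0.22 for Ptch1, -0.32 to 0.080 for Gli1, -0.28 to 0.85 for Msx2 and -0.056 to 0.87 for Dlx3. In IL-17C+ mice they were -1.37 to 1.06 for Shh, -0.051 to 0.76 for Ptch1, -0.36 to 0.44 for Gli1, -0.82 to 1.31 for Msx2, -0.22 to 1.61 for Dlx3 and -0.79 to 0.012 for Gata3. In the mice labelled IL-17C+KO they were -4.26 to 1.85 for Shh, -1.07 to 0.95 for Lef1, -1.04 to 1.86 for Msx2, -1.23 to 2.11 for Hoxc13, -0.95 to 1.22 for Dlx3 and -0.24 to 2.77 for Fgf5. For the difference between labels they were -4.33 to 2.23 for Shh, -0.70 to 0.080 for Gli1, -1.37 to 1.53 for Msx2, -2.37 to 0.97 for Hoxc13, -0.99 to 0.82 for Foxn1, -1.67 to 0.50 for Dlx3 and -1.62 to 1.69 for Fgf5. Between labels in uninvolved skin they were -0.59 to 0.25 for Ptch1 and -0.99 to 0.19 for Gli1. Values that kept their direction also moved, such as Shh between labels in lesional skin at -9.25 to -1.66 and Fgf5 there at -5.80 to -0.59. Regulators called ranged from 0 to 1 over all mice and from 0 to 3 between labels in uninvolved skin, and genes called from 0 to 1249 over all mice, 0 to 11 in the mice labelled IL-17C+KO and 0 to 241 between labels in uninvolved skin. With 2 mice under one label and 3 under the other, few mice stand behind each value. The cause of these shifts was not tested.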

Other observations

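Genes outside the follicle lists gave few calls between lesional and uninvolved skin. Over all mice the 8 genes past the threshold in edgeR's test included Osm, a cytokine of the interleukin-6 family, at 4.66 ± 0.36 log2 units (SE, 5 mice; adjusted p = 0.026), and Fn1, the matrix protein fibronectin, at 1.73 ± 0.16 (adjusted p = 0.026). All 7 tested sebaceous gland genes had differences below 0 over all mice, with a median of -0.64 log2 units, and 0 of them passed. Awat2, an enzyme of wax ester synthesis, differed by -0.80 ± 0.34 (edgeR adjusted p = 0.232) and was lower in 5 of 5 mice. Osm and Fn1 were chosen after their values were seen. Of 10 follicle stem cell genes 0 rose and 0 fell, and Krt15, a keratin of the bulge and basal layer, differed by -1.04 ± 0.32 (edgeR adjusted p = 0.143), lower in 5 of 5 mice.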
